A study of Mus musculus with 4 samples.

Results

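The 10 genes described here encode 5 ligands of the EGF receptor family (Areg, Ereg, Btc, Hbegf and Tgfa), 3 of its receptors (Egfr, Erbb2 and Erbb3) and 2 inhibitors of those receptors (Errfi1 and Lrig1). They were chosen by name as the listed family members, by a rule that uses no measured value. The list was drawn up with earlier results of these data known. The set makes up 10 of the 30284 genes with a matched transcript. All 10 passed the filter on low counts. RNA came from small-intestinal organoids, epithelial structures that isolated crypts form in Matrigel. The crypt donors were 2 male C57BL/6J mice labelled 9 weeks old. From each mouse, 1 culture received DMSO, the vehicle, and 1 received GW3965 at 2 µM, both for 6 h, so each treatment has 2 libraries. GW3965 activates LXR, the liver X receptors, nuclear receptors that respond to oxysterols. The tag of the age label refers to day 0 of a DSS (dextran sulfate sodium) treatment, while no label of these samples describes one, so the age may not be that at crypt isolation. The labels name no engineered allele, so the groups share genotype, sex, age and culture and differ in the added compound. The labels do not list the components of the medium.

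Ligands of this family are made as membrane-anchored precursors, cut free by ADAM proteases, and bind the extracellular part of EGFR (some of them also ERBB4), which then pairs with another receptor of the family and activates the ERK and PI3 kinase cascades. ERBB2 has no known ligand of its own and acts as a partner, while ERBB3 binds neuregulins and has little kinase activity. ERRFI1 (MIG6) blocks the kinase domain of EGFR and is itself induced by EGFR signalling, and LRIG1 promotes receptor degradation and marks stem cells of the intestinal crypt. EGF is a standard factor of intestinal organoid cultures, and EGFR signalling drives proliferation of crypt cells.

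The libraries held 16572359 to 19486547 estimated counts, of which the 10 genes together took 0.150 to 0.211%. The GW3965 library of mouse 1 stood apart. It was the shallowest, 14.0% of its counts were mitochondrially encoded against 7.60 to 9.43% in the other libraries, and a chi-square of gene counts per degree of freedom was 47.1 to 72.0 against any other library and 9.89 to 20.5 among the others. Its summed level of 8 epithelial markers was 23678 CPM (counts scaled to a common library total) against 31469 to 34253. Of the immune markers, the list of 10 summed to 301 CPM in that library and 328 to 356 in the others, most of it Cd74, which epithelium also expresses. The 9 others, a split made after their values were seen, summed to 67.0 CPM there and to 35.3 to 40.1 elsewhere (Ptprc 21.9 against 10.7 to 12.7), while Adgre1, a macrophage marker, was at 3 or fewer counts in every library. The 3 endothelial markers summed to 26.0 CPM there and 13.5 to 17.3 CPM elsewhere, nearly all of it Pecam1, with Cdh5 and Kdr at 3 or fewer counts throughout. The 8 mesenchymal markers summed to 19.7 to 23.1 CPM, most of it Vim (15.5 to 18.9 CPM). Pdgfra and Dcn were at 3 or fewer counts throughout. The LXR targets Abca1, Abcg1 and Srebf1 rose with GW3965 (log2 fold changes 5.54, 4.35 and 2.53, edgeR adjusted p of 0.00134, 0.000157 and 0.00525) and were higher in both mice.

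Levels of different genes were compared as TPM, the unit that corrects for transcript length and scales each library to the same total. Areg, which encodes amphiregulin, a ligand that binds EGFR alone, was the most abundant of the 10 by a wide margin. It stood at 595 TPM in the DMSO library and 679 TPM in the GW3965 library of mouse 1, and at 680 and 906 TPM in those of mouse 2, which placed it between rank 185 and rank 267 of all genes. Errfi1 followed at 102 to 155 TPM and Btc (betacellulin, a ligand of EGFR and ERBB4) at 69.4 to 106.5 TPM. Hbegf (heparin-binding EGF-like growth factor) lay at 28.9 to 44.7 TPM, Tgfa (transforming growth factor alpha) at 14.0 to 26.8 TPM, and Ereg (epiregulin, also a ligand of EGFR and ERBB4) at 16.8 to 30.6 TPM. The receptors were close to one another, with Egfr at 21.4 to 36.3 TPM, Erbb3 at 17.3 to 34.2 TPM and Erbb2 at 19.3 to 25.6 TPM. Lrig1 was lowest, at 6.20 to 8.41 TPM.

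In the DMSO libraries the order of mean TPM was Areg, Errfi1, Btc, Hbegf, Egfr, Erbb3, Erbb2, Tgfa, Ereg and Lrig1. Hbegf and Egfr did not differ beyond their spread over the 2 libraries, nor did Erbb3 and Erbb2, and each other neighbouring pair was apart in both libraries. The places of Tgfa above Ereg and of Egfr above Erbb3 rest on short transcripts with few counts. With DMSO, Tgfa-201 alone was at 10.9 and 12.1 TPM, against 16.8 and 20.5 TPM for Ereg. Egfr-201 was at 7.50 and 8.92 TPM and Egfr-202 at 9.59 and 8.30 TPM, against 23.1 and 28.8 TPM for Erbb3. In the GW3965 libraries Areg, Errfi1 and Btc kept the first 3 places and Lrig1 the last, each apart from its neighbour, and the ranges of all neighbours from Hbegf down to Tgfa overlapped. Areg contributed 80.7 and 81.0% of the summed TPM of 11 EGF-family ligands with DMSO and 82.4 and 81.1% with GW3965 (mouse 1 and mouse 2). The summed TPM of those ligands was 737 and 840 with DMSO and 824 and 1117 with GW3965. Per unit of Egfr TPM there were 16.4 and 22.0 units of Areg TPM with DMSO and 31.7 and 27.8 with GW3965. The TPM ratio was higher with GW3965 in both mice, but it rests in part on short Egfr transcripts with few counts. As a ratio of normalised CPM, with no correction for length, it was 5.55 with DMSO and 9.05 with GW3965 in mouse 1 and 5.88 and 6.07 in mouse 2, so in mouse 2 the values nearly coincide. In mouse 1 the Egfr term of the TPM ratio was 36.3 TPM with DMSO and 21.4 TPM in the GW3965 library that stands apart.

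**Figure D1:**
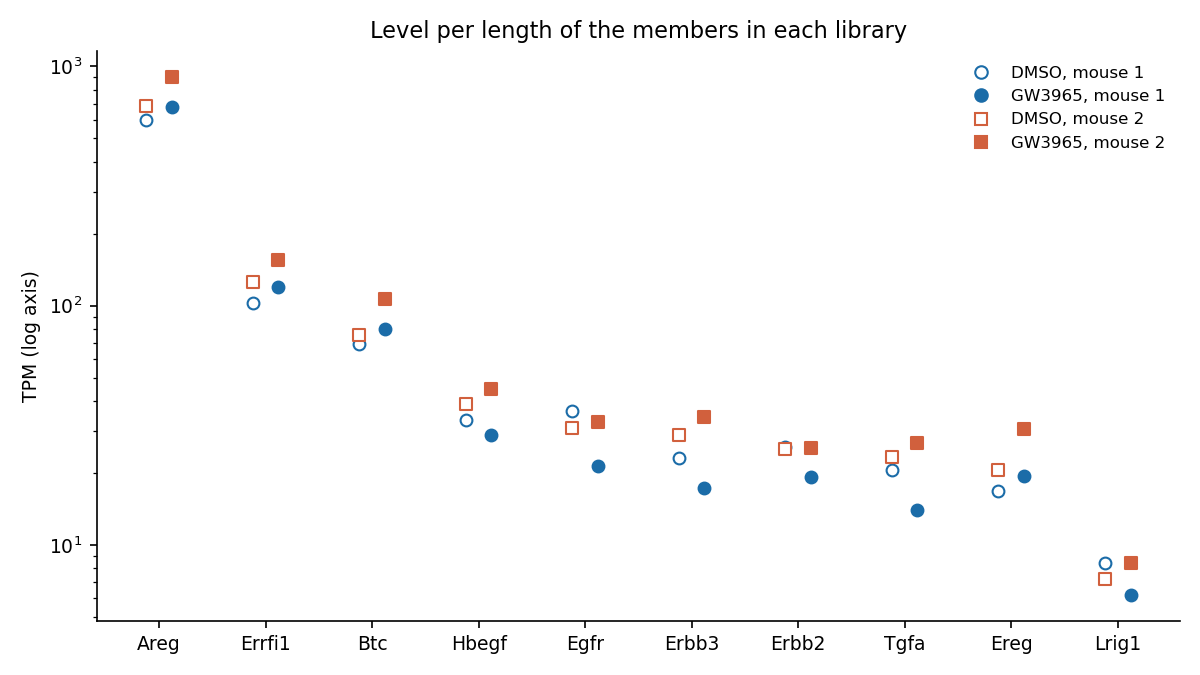
TPM of each gene (log axis) in the 4 libraries, by treatment and mouse, ordered by level. Areg lies between 595 and 906 TPM, above every other gene in each library, and Lrig1 lies lowest, between 6.20 and 8.41 TPM.

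The remaining ligands and the fourth receptor were near or below detection. Egf itself had 14, 6, 10 and 6 counts in the DMSO and GW3965 libraries of mouse 1 and then of mouse 2, and Epgn (epigen), which lies beside Ereg on chromosome 5, had 4, 7, 6 and 6. Nrg1 and the receptor gene Erbb4 had 0 counts in all 4 libraries, and Nrg3 had at most 1. A count of 0 allows up to 3 counts per library. Nrg2 and Nrg4 were measurable at a mean of 1.04 and 1.64 CPM with DMSO. No neuregulin gene exceeded 3.11 CPM, the value of Nrg4 in the GW3965 library of mouse 1.

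The regions just upstream of the starts of Areg and Errfi1, the most abundant ligand and the most abundant inhibitor of the set, are shown because the pair is also close in its pattern over the libraries (below), with Btc, the gene most like Areg, for comparison. Sequences are from the RefSeq promoter table (GRCm38.p6), in which 7 of the 10 genes had an entry, with 8 starts between them; Ereg, Hbegf and Erbb3 were not matched. Each run is the 120 bases before the start, 5′ to 3′ on the strand of the gene, and capitals mark the cAMP response element TGACGTCA (the binding motif of CREB and related factors) and the TATA box TATAAA. The windows are chr5:91139479-91139598 (plus strand) for Areg, chr4:150854950-150855069 (plus strand) for Errfi1 and chr5:91402995-91403114 (minus strand) for Btc.
Areg: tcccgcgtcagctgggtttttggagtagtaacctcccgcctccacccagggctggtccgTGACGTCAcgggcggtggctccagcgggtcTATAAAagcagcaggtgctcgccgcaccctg
Errfi1: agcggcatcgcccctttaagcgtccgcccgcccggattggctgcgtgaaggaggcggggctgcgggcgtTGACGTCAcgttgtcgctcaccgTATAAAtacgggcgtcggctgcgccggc
Btc: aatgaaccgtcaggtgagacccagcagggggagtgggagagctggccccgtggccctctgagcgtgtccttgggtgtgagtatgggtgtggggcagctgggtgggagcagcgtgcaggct

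TGACGTCA began 61 bases before the start of Areg and 51 before that of Errfi1, and TATAAA began 31 and 28 bases before. On either strand of the 250 bases before a start, TGACGTCA was found in 508 of 32851 promoters (1.55%), TATAAA in 4063 (12.4%) and both in 39 (0.119%). Among the 8 starts of the set, both motifs were found at these 2 only, and Errfi1 has a second listed start, upstream, with neither. The LXR element of the DR4 type (AGGTCA repeated in the same direction after 4 other bases) was found in 5 of all promoters (0.0152%) and the AP-1 motif TGANTCA in 2217 (6.75%), and neither at the 8 starts of the set. TATAAA and TGACGTCA do not overlap in these windows. The motifs were chosen after the sequences and values had been seen, and a match describes letters in a window, not a bound site. At shares this low, absence from 8 starts is not informative, and only these letters within 250 bases were searched.

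With GW3965, none of the 10 genes passed the test (edgeR, adjusted p of 0.99986 for each), beside 8 of 13602 genes tested in all (0.0588%). DESeq2 and limma-voom also called 0 of the 10 (0.147% of all genes by either tool). At an unadjusted p under 0.05 there were 0 of the 10 in edgeR (1.05% of all genes), 0 in limma-voom (1.15%) and 2 in DESeq2, Btc and Ereg (0.728%). The genes that stood highest against DMSO were the 3 ligands of the chromosome 5 cluster, Ereg, Btc and Areg, each 1.30- to 1.39-fold higher on average and higher in both mice. The receptors Egfr and Erbb3, the ligand Tgfa and the inhibitor Lrig1 were lower in mouse 1 and higher in mouse 2. In bulk RNA, fewer cells of a type and less RNA per cell cannot be told apart. The values that follow are CPM scaled by TMM factors, and differences are log2 ratios. Intervals on a difference within a mouse are 95% exact binomial intervals and cover counting error only. The replicates are cultures of 2 mice, so the tests measure the spread between 2 animals and their cultures.

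Areg (ENSMUSG00000029378, chromosome 5, 91139599 to 91148432, plus strand, GRCm38) was at 559 CPM with DMSO and 757 CPM with GW3965 in mouse 1, and at 677 and 853 CPM in mouse 2. Both GW3965 libraries were above both DMSO libraries, the nearest pair being 677 and 757 CPM. The means were 618 ± 83.0 CPM with DMSO and 805 ± 68.0 CPM with GW3965 (SD, n = 2), a log2 fold change of 0.38 ± 0.24 (SE). Within mice the difference was 0.44 (interval 0.40 to 0.47) in mouse 1 and 0.33 (0.30 to 0.37) in mouse 2. Counting error was thus small beside both differences, and the 2 DMSO cultures differed from each other by 0.27.

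Ereg (chromosome 5, 91074622 to 91093646, plus strand), whose start lies 65.0 kb before that of Areg, was at 61.3 and 84.4 CPM in the control and treated cultures of mouse 1 and at 79.3 and 111.5 CPM in mouse 2. The treated libraries were again above both controls, with 79.3 and 84.4 CPM as the nearest pair. The log2 fold change was 0.48 ± 0.22 (SE), and the differences within mice were 0.46 (0.35 to 0.58) and 0.49 (0.40 to 0.59). Of the 10 genes, Ereg had the largest fold change in the fit, and its 2 mice differed less than their counting intervals. Btc (chromosome 5, 91357261 to 91402994, minus strand), whose start lies 263.4 kb beyond that of Areg, was at 172.5 and 236 CPM in mouse 1 and at 198 and 265 CPM in mouse 2. Its groups were apart as well, by 198 against 236 CPM. The log2 fold change was 0.43 ± 0.22 (SE), with 0.45 (0.38 to 0.52) and 0.42 (0.36 to 0.48) within mice.

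These 3 genes were the only ones of the 10 whose groups did not overlap, a position held by 9.28% of all genes tested with GW3965 above and by 9.18% with GW3965 below. A difference in both mice at least as large as the smaller one of Areg was found in 363 of 13602 genes (2.67%), and in 23 of the 6869 genes at a mean of 20 CPM or more (0.335%), a floor set after the values were seen. The 3 genes lie in 1 region and share their libraries, so they are not 3 independent observations. Total-count, RLE and nuclear-gene scalings left each of the 6 within-mouse differences between 0.33 and 0.50, and moved the median of all genes by less than 0.1.

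**Figure D2:**
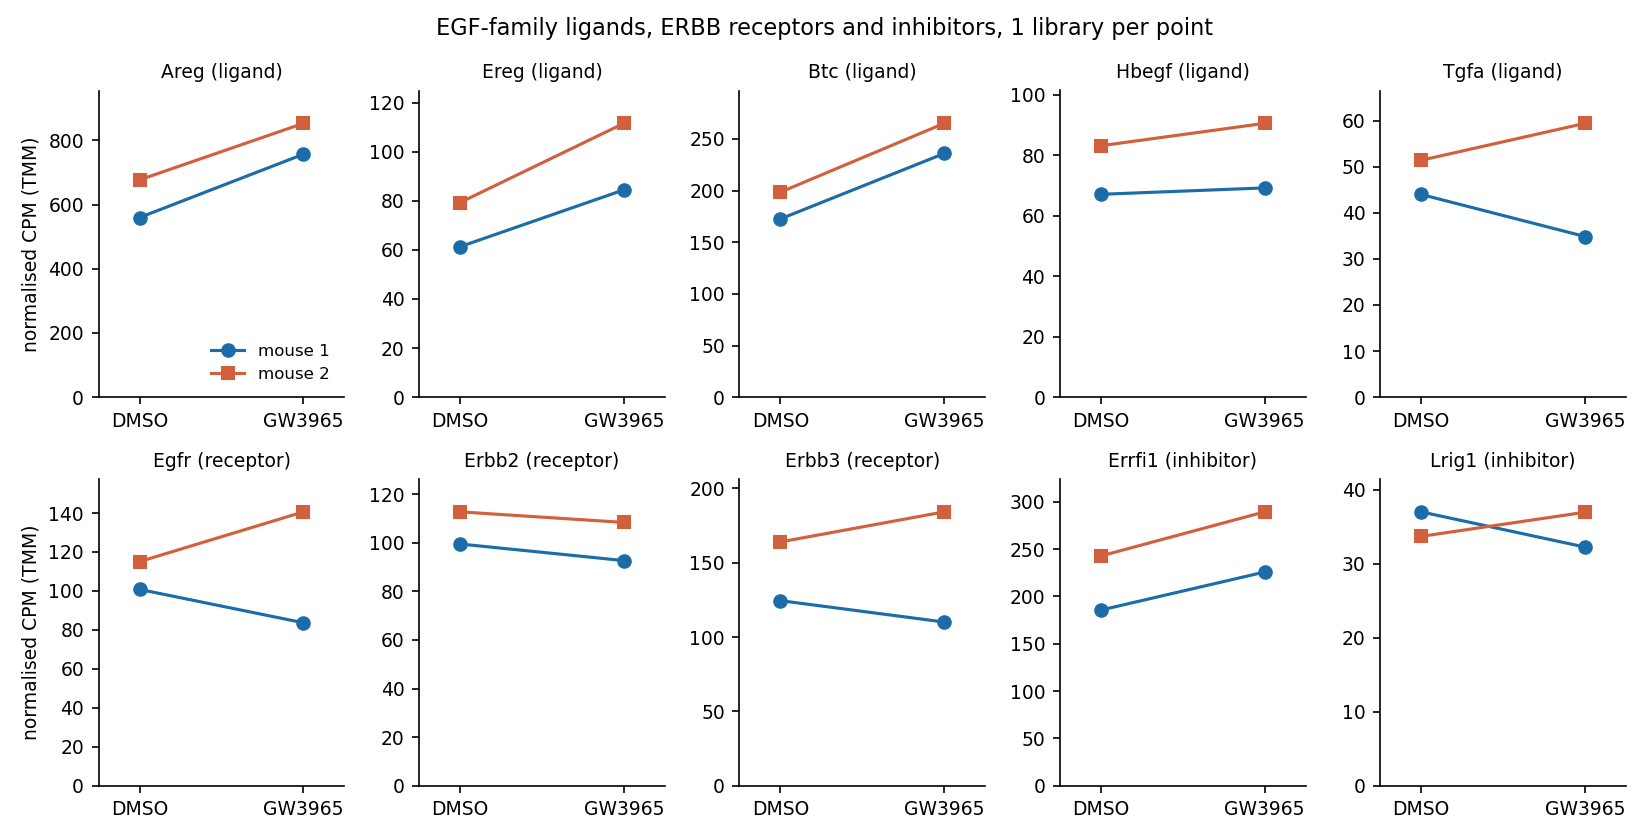
Normalised CPM of each of the 10 genes in the 4 libraries, 1 panel per gene with its own axis from 0; lines join the DMSO and GW3965 libraries of the same mouse. Both lines slope upward for Areg (559 to 757 and 677 to 853 CPM), Ereg and Btc, while those of Tgfa, Egfr, Erbb3 and Lrig1 cross or diverge.

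The other 2 ligands, Hbegf and Tgfa, had overlapping groups. Hbegf, on chromosome 18, was at 67.1 and 69.2 CPM in the control and treated cultures of mouse 1 and at 83.1 and 90.5 CPM in mouse 2. The mice differed more than the treatments did, and the groups overlapped (log2 fold change 0.09 ± 0.21, SE; within mice 0.04, interval -0.07 to 0.16, and 0.12, 0.02 to 0.22). With total-count scaling the difference in mouse 1 was -0.0011, so its sign rests on the scaling. Tgfa (chromosome 6, 86195223 to 86275719, plus strand) was at 44.0 and 34.8 CPM in mouse 1 and at 51.4 and 59.4 CPM in mouse 2. Its lowest and highest values were both GW3965 libraries (log2 fold change -0.02 ± 0.25, SE), and the within-mouse differences were -0.34 (-0.49 to -0.18) and 0.21 (0.08 to 0.33).

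The receptors showed no shift shared by the mice, apart from small negative values of Erbb2. Egfr (chromosome 11, 16752203 to 16918158, plus strand) was at 101 and 83.6 CPM in the control and treated cultures of mouse 1 and at 115 and 141 CPM in mouse 2. As for Tgfa, the treated libraries were the lowest and the highest of the 4. The log2 fold change was 0.06 ± 0.26 (SE), with -0.27 (-0.37 to -0.17) and 0.29 (0.21 to 0.37) within mice. Erbb3 (chromosome 10, 128567523 to 128589652, minus strand), the neuregulin receptor, was at 124 and 110 CPM in mouse 1 and at 164 and 184 CPM in mouse 2. Mouse 2 was above mouse 1 whatever the treatment (log2 fold change 0.03 ± 0.28, SE; within mice -0.18, interval -0.27 to -0.09, and 0.17, 0.10 to 0.24). Erbb2 (chromosome 11, 98412470 to 98437716, plus strand), the partner receptor, was at 99.5 and 92.7 CPM and at 113 and 108 CPM. Its groups overlapped and the differences were the smallest of the receptors, at -0.10 (-0.20 to -0.0050) and -0.06 (-0.14 to 0.03).

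Of the inhibitors, Errfi1 was higher with GW3965 in both mice and Lrig1 in mouse 2 alone. Errfi1 (chromosome 4, 150853919 to 150868892, plus strand) was at 185 and 226 CPM in the control and treated cultures of mouse 1 and at 243 and 289 CPM in mouse 2. The differences were 0.28 (0.22 to 0.35) and 0.25 (0.20 to 0.31), and the control of mouse 2 exceeded the treated culture of mouse 1, so the groups overlapped (log2 fold change 0.27 ± 0.25, SE). Lrig1 (chromosome 6, 94604529 to 94700158, minus strand) was at 37.0 and 32.2 CPM and at 33.7 and 36.9 CPM, with the highest value in a control (log2 fold change -0.03 ± 0.19, SE; within mice -0.20, interval -0.36 to -0.03, and 0.13, -0.02 to 0.29). Lrig1 and Tgfa each overlap a gene on the other strand (Slc25a26 and Gm43917) and shared 1.96 and 1.37% of their 31-base words with it. Whether the counting used strand is not stated in the labels or file headers, so reads of the overlapping pairs may not be separable. For the other 8 genes at most 0.668% of these words occurred in any other gene, and Areg shared 0. Erbb2 overlaps Mien1 on the other strand and shared 0 of its words as well.

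Counted over the set, 5 genes were higher with GW3965 in both mice (Areg, Ereg, Btc, Hbegf and Errfi1; 16.3% of all genes tested and 9.45% of those at 20 CPM or more), 1 was lower in both (Erbb2; 17.2% of all) and 4 were lower in mouse 1 and higher in mouse 2 (32.9% of all). The median log2 fold change was 0.07 over the 10 genes and 0.38 over the 5 ligands, beside 0.00 over all genes. The within-mouse differences of the 2 mice ran against each other over all genes (Pearson r = -0.311 across the 6869 genes at 20 CPM or more, which are not independent), and 66.5% of genes tested differed in opposite directions or not at all. Compared with its DMSO partner alone, mouse 1 gave a median of -0.03 over the 10 genes and mouse 2 a median of 0.23.

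**Figure D3:**
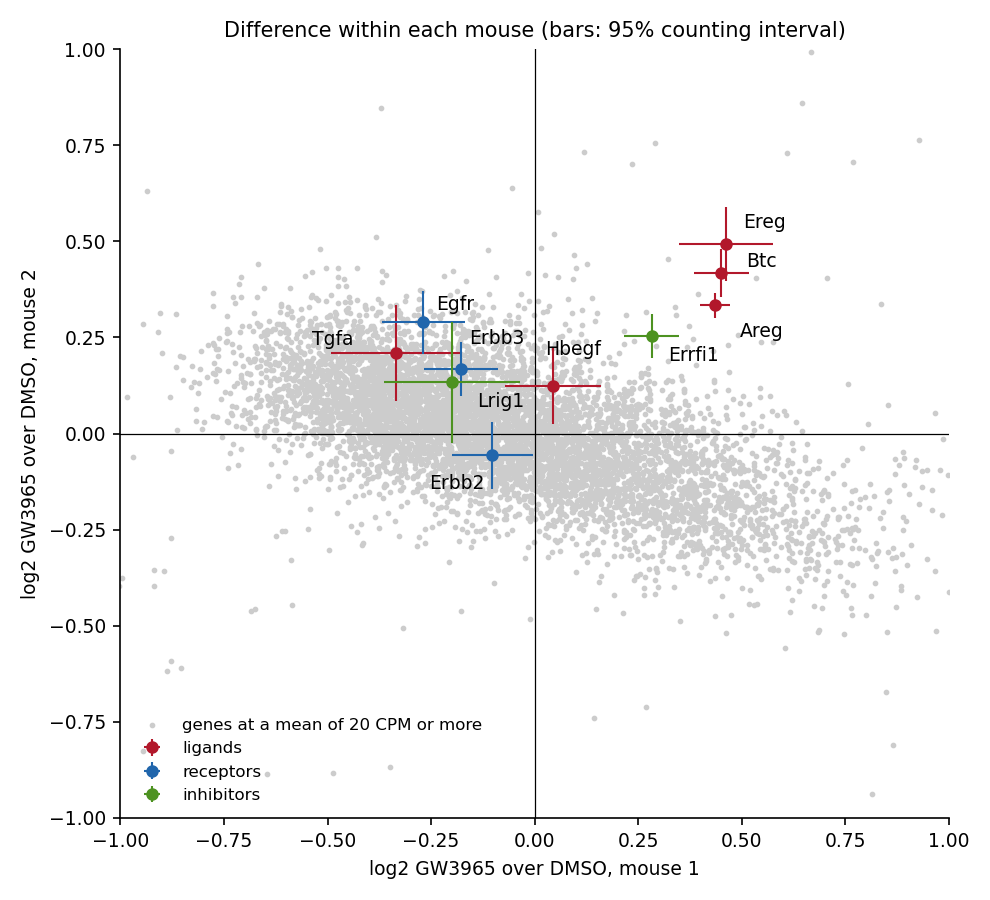
Log2 ratio of GW3965 to DMSO in mouse 1 (horizontal) against that in mouse 2 (vertical) for the 10 genes, coloured by role, with 95% counting intervals, over the 6869 genes at a mean of 20 CPM or more (grey, 42 of which lie outside the axes at 1). Ereg, Btc and Areg lie near 0.4 to 0.5 in mouse 1 and 0.3 to 0.5 in mouse 2, Errfi1 is next, and Tgfa, Egfr, Erbb3 and Lrig1 lie at the upper left.

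Since the GW3965 library of mouse 1 stood apart, the values were taken again without it, leaving 1 GW3965 library that is assumed to vary like the controls. That library is from mouse 2 and is set against the controls of both mice. Treatment and mouse therefore cannot be told apart in this fit. Between the 2 controls, every gene but Lrig1 was already higher in mouse 2, by 0.18 (Erbb2) to 0.40 (Erbb3). Erbb2 was at 0.03 in this fit, against -0.06 beside its own control in mouse 2. All 10 genes then had a log2 fold change above 0 (48.4% of all genes did), with a median of 0.37. Ereg was at 0.67 ± 0.15, Btc at 0.51 ± 0.16, Areg at 0.46 ± 0.18, Errfi1 at 0.43 ± 0.17 and Egfr at 0.38 ± 0.15 (SE). None passed the adjusted threshold, the smallest adjusted p being 0.0637 for Ereg (edgeR; 0.389% of all genes passed). At an unadjusted p under 0.05 there were 7 of the 10 (4.34% of all genes). Without the GW3965 library of mouse 2 instead, 6 of the 10 had a log2 fold change below 0 (49.6% of all genes did) and the median was -0.13. That fit likewise sets 1 treated library, from mouse 1, against the controls of both mice. Btc was then at 0.35 ± 0.15, Areg at 0.29 ± 0.17, Ereg at 0.26 ± 0.17 and Errfi1 at 0.08 ± 0.18, and Tgfa at -0.45 ± 0.15 and Egfr at -0.37 ± 0.15 (SE). In that fit 0 were called (0.595% of all genes), and Btc, Tgfa and Egfr had an unadjusted p under 0.05 (23.5% of all genes). In the GW3965 library of mouse 2, 8 of the 10 genes were above both controls (32.7% of all genes), whereas in the GW3965 library of mouse 1 there were 3 above (40.1%) and 5 below (40.3%). The share of mitochondrial counts, the epithelial marker sum and the immune marker sum without Cd74 of the library of mouse 1 moved with the lower values of Tgfa, Egfr, Erbb3 and Lrig1 there, and their part in those values was not tested.

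The cluster was set against its neighbourhood on chromosome 5. Of 28 annotated genes whose starts lie within 1 Mb of that of Areg, 16 were tested, the 3 ligands and 13 others, and 0 were called. Among the 13 others, 2 were higher with GW3965 in both mice (16.3% of all genes tested). They were Rassf6 (0.18 and 0.11, groups apart) and the fetal serum protein gene Afp (0.34 and 0.02). Another 2 were lower in both (17.2% of all), Cdkl2 (-0.33 and -0.09, groups apart) and Gm9958 (-0.02 in each). Groups were thus apart for 1 of the 13 above (9.28% of all) and 1 below (9.18%). The remaining 9 differed in sign between the mice (66.5% of all did so or did not differ). They included the nearest tested genes on either side of the ligands, Mthfd2l (a mitochondrial folate enzyme; -0.17 and 0.31) and Parm1 (-0.17 and 0.40), as well as Ankrd17 (-0.55 and 0.33), Rchy1 (0.36 and -0.20), Cox18 (-0.35 and 0.08), G3bp2 (-0.17 and 0.05), Uso1 (-0.28 and 0.10), Afm, which had only 9 to 25 counts (1.57 and -0.85), and Thap6, annotated as a pseudogene. No other tested gene of this interval reached the smaller difference of Areg in both mice, as 2.67% of all genes tested did. The chemokine genes Cxcl1, Cxcl2, Cxcl3 and Cxcl5, which lie between Rassf6 and Epgn, had at most 10 counts in any library.

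**Figure D4:**
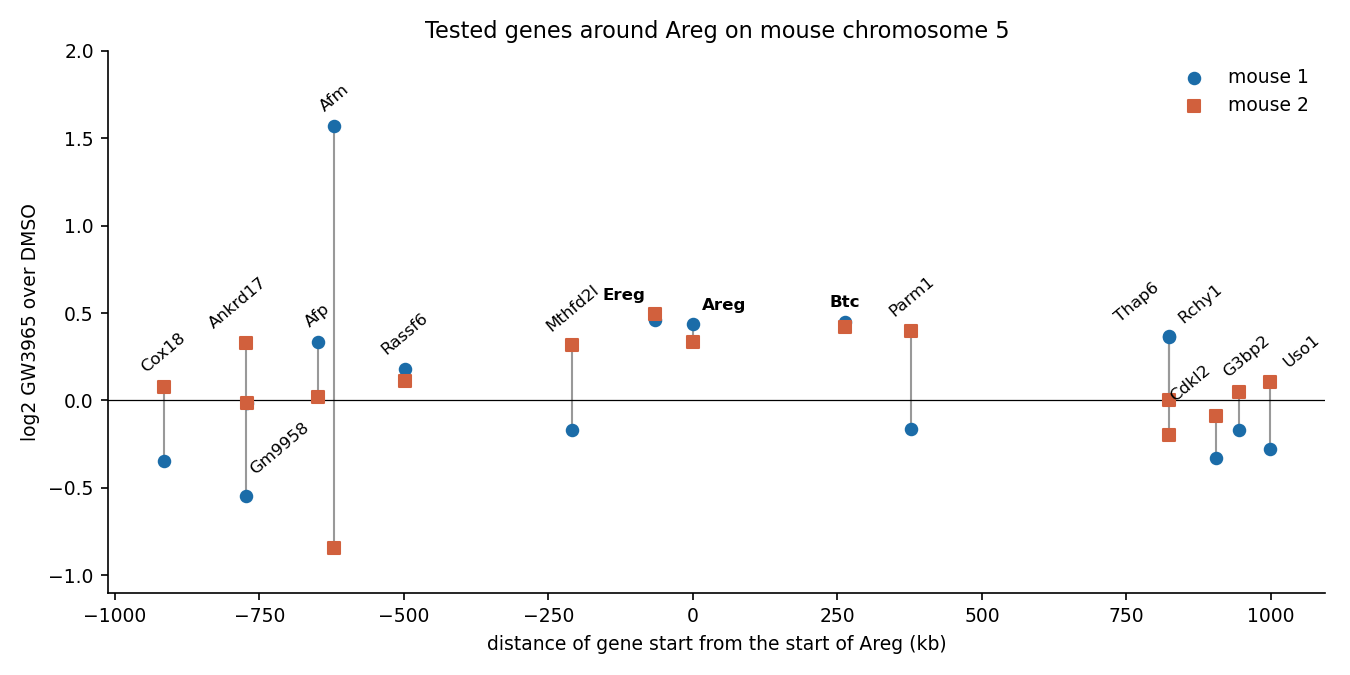
Log2 ratio of GW3965 to DMSO in mouse 1 (circles) and mouse 2 (squares) for the 16 tested genes whose starts lie within 1 Mb of that of Areg, against the distance of each start in kb; grey lines join the mice. The 3 ligands, in bold, lie between 0.33 and 0.49 in both mice, and Mthfd2l and Parm1 beside them lie on both sides of 0.

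By the pattern over the 4 libraries, the gene nearest to Areg among 5238 protein-coding genes (mean log2 CPM 5 or more) was Btc (Euclidean distance between centred log2 CPM values 0.072). It was followed by Muc2 (0.073), the main mucin of goblet cells, and Dusp1 (0.088), a phosphatase of MAP kinases. H2-Q1 (0.114), a class I histocompatibility gene, and Nr2c2 (0.165), an orphan nuclear receptor, came next. Errfi1 was at rank 11 (0.192) and Ereg at rank 13 (0.198), Hbegf at rank 210, and the other 5 members between rank 1351 and rank 3534. The measure rests on 4 values per gene. The 4 goblet cell markers, Muc2 among them, summed to 1882 and 2346 CPM in the control and treated cultures of mouse 1 and to 2424 and 2814 CPM in mouse 2, so the sum was higher with GW3965 in both mice. Of the 4, only Muc2 was higher in both mice, while Tff3, Agr2 and Fcgbp differed in sign between them. The sums of the 4 enterocyte markers (1883 and 2347 CPM in mouse 1, 2246 and 2457 CPM in mouse 2) and the 4 Paneth cell markers (9212 and 9990 CPM, 7895 and 8045 CPM) were also higher with GW3965 in both mice. Of the single genes, only Apoa1, Fabp1 and the Paneth marker Defa24 were higher in both mice. Alpi, Sis, Lyz1, Mmp7 and Ang4 differed in sign between them. The sums of the enteroendocrine markers (488 and 468 CPM, 611 and 694 CPM) and the tuft cell markers (61.2 and 52.5 CPM, 68.4 and 76.9 CPM) differed in sign. The 4 stem cell markers summed to 174 and 147 CPM in mouse 1 and to 144 and 140 CPM in mouse 2. The part of these cell types in the Areg values was not tested.

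Among the genes that act with these ligands and receptors, 63 were counted here, 57 were tested and 0 were called in either direction (0.0588% of all genes were). None had an unadjusted p under 0.05 (1.05% of all), 24 had a log2 fold change above 0 and 33 below, and the median was -0.03 (-0.20 in mouse 1 and 0.08 in mouse 2). Without the GW3965 library of mouse 1 the split was 45 above and 13 below 0 of 58 tested, with a median of 0.10. In that fit treatment and mouse cannot be told apart. With all libraries kept, both treated libraries lay above both controls for 3 of the 57 genes, Rhbdf2, Spry1 and Spry2 (9.28% of all genes tested). They lay below both controls for 3 others, Shc1, Nras and Mapk3 (9.18% of all).

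Of 7 tested genes of ligand shedding, 4 were above and 3 below 0. Adam10, which sheds Egf and Btc, was at 133 and 83.1 CPM in the control and treated cultures of mouse 1 and at 122 and 143 CPM in mouse 2. Rhbdf2, a cofactor of the protease ADAM17, was at 48.2 and 50.4 CPM and at 48.5 and 51.5 CPM, so its treated libraries were above both controls, by very little. Adam17 itself differed by -0.07 and 0.08 in the mice and is named here outside the rule, with its values known. Rhbdf1, the related cofactor, differed by 0.58 and -0.24, and Adam19, at about 1 CPM, by 1.13 and -0.02. The 2 tested neuregulin genes, Nrg2 and Nrg4, differed by -0.39 and 0.98 and by 0.75 and -0.13.

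Of the 13 adaptors, inhibitors and degradation factors, 3 were above and 10 below 0. The adaptor gene Shc1 was at 124 and 108 CPM in the control and treated cultures of mouse 1 and at 122.2 and 121.7 CPM in mouse 2. Lrig2, a relative of Lrig1, differed by 0.13 and 0.09, the scaffold gene Gab1 by -0.39 and -0.10 and the Ras activator Sos1 by -0.54 and 0.23. In the ERK cascade 3 of 10 genes were above and 7 below 0. Nras was at 97.7 and 84.6 CPM and at 106.7 and 97.0 CPM, and Mapk3 (ERK1) at 171 and 131 CPM and at 161 and 158 CPM. Both had treated libraries below both controls, as did 9.18% of all genes tested. The kinase genes Map2k1 (-0.51 and 0.05) and Map2k2 (-0.42 and -0.02) were lower mainly in mouse 1. In the PI3 kinase arm 3 of 7 were above and 4 below 0. Its named genes Pik3r1 (-0.35 and 0.17), Pik3r2 (-0.11 and -0.05), Akt1 (-0.27 and 0.00) and Akt2 (-0.25 and 0.07) had their larger differences in mouse 1.

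The list of genes that ERK signalling induces, many of which feed back on it, had 9 of 18 above and 9 below 0. The named genes of this list were Ccnd1 (cyclin D1), Spred1, Spred3 and Etv5. Ccnd1 was at 136 and 68.8 CPM in the control and treated cultures of mouse 1 and at 99.3 and 106 CPM in mouse 2, so its difference lay in mouse 1 (-0.98, against 0.09 in mouse 2). Spred1 (-0.58 and 0.05), Etv5 (-0.79 and 0.08) and Spred3 (1.43 and -0.53, at 2.67 to 7.19 CPM) were likewise split. Higher in both mice were 5 of the 18 (16.3% of all genes tested). They were Dusp6 (0.09 and 0.31), Spry1 (0.00 and 0.32), Spry2 (0.28 and 0.11), Egr1 (0.07 and 0.09) and Fos (0.02 and 0.09). Lower in both were 2 (17.2% of all), Etv4 (-0.17 and -0.15) and Fosl1 (-0.33 and -0.03). These 7 were chosen after their values were seen. In mouse 1 the values of Spry1 and Fos are near 0, so their sign may rest on the scaling.

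At the level of transcripts, the files list 25 for the 10 genes, of which 19 were tested and 0 called (0.0% of 32357 transcripts were). Areg, Ereg, Btc, Hbegf and Erbb3 have 1 transcript each in the files, so their gene values are those of 1 transcript. For Erbb2, the protein-coding transcript Erbb2-201 held 54.0% (Wilson 95% interval 51.8 to 56.2%) and 66.7% (64.3 to 69.1%) of the count of the gene in the control and treated cultures of mouse 1, and 58.4% (56.3 to 60.5%) and 64.6% (62.5 to 66.6%) in mouse 2. Its share was higher with GW3965 in both mice, and the share of the noncoding Erbb2-202 was lower. The quantification divides reads that fit both forms, so these shares carry an error beyond the counting interval. The log2 fold changes were 0.14 ± 0.20 for Erbb2-201 and -0.42 ± 0.22 for Erbb2-202 (SE), and neither passed the test (edgeR adjusted p of 0.999977).

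For Lrig1, the shorter protein-coding transcript Lrig1-201 had 31.6 and 77.8 estimated counts in the control and treated cultures of mouse 1 and 42.4 and 77.8 in mouse 2. That is 4.40% (3.17 to 6.21%) and 14.7% (12.0 to 18.0%) of the count of the gene in mouse 1, and 6.68% (4.93 to 8.82%) and 11.1% (8.97 to 13.6%) in mouse 2. It was the only one of the 19 with an unadjusted p under 0.05 (2.61% of transcripts had one), at a log2 fold change of 1.18 ± 0.43 (SE), and its adjusted p was 0.999977 (edgeR). The longer Lrig1-202 held 95.6, 85.3, 93.3 and 88.9% in the DMSO and GW3965 libraries of mouse 1 and then of mouse 2. Reads that fit both are divided by the quantification, so these shares carry an error beyond the counting interval.

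By share of the estimated count, the other genes with several transcripts had 1 leading form in all 4 libraries. Egfr-201, the full-length form, held 68.8 and 74.8% of the Egfr count in mouse 1 and 75.8 and 78.8% in mouse 2, and Egfr-202, a shorter protein-coding form, 24.2 and 19.6% and 19.4 and 18.1%. Errfi1-201 held 78.0 and 72.2% and 77.0 and 77.0% of the Errfi1 count. It begins at the start with both motifs shown above, and Errfi1-202, which starts further upstream, held 15.3 to 18.1%. Tgfa-201 held 91.6 to 93.2% of the Tgfa count. Per length the order was less clear, since short transcripts weigh more in TPM. Egfr-203, on 14.5 to 54.9 estimated counts, made up 29.6% of Egfr TPM in the DMSO library of mouse 1 against 20.6% for Egfr-201. The noncoding Errfi1-203 made up 33.7 to 45.7% of Errfi1 TPM and exceeded Errfi1-201 in the GW3965 library of mouse 1. Errfi1-201 alone was at 52.0 to 84.3 TPM, below Btc in each library, so the place of Errfi1 above Btc by TPM rests on its other transcripts.

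**Figure D5:**
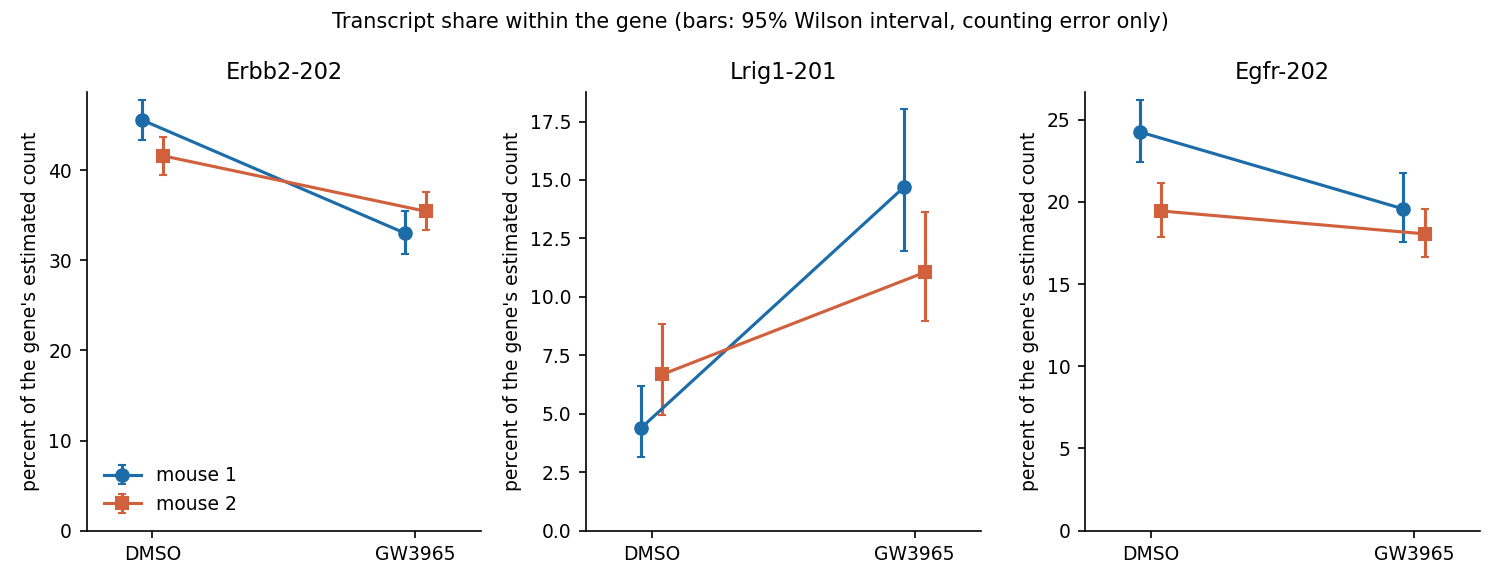
Share of the gene's estimated count (percent, axes from 0) held by the second form of Erbb2, Lrig1 and Egfr in the DMSO and GW3965 libraries of each mouse, with 95% Wilson intervals. The intervals cover counting error only, not the division of reads between forms. Erbb2-202 stands at 45.6 and 41.6% with DMSO and 33.0 and 35.4% with GW3965, and Lrig1-201 at 4.40 and 6.68% with DMSO and 14.7 and 11.1% with GW3965.

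In the authors' deposited table of log2 CPM, 9 of the 10 genes were matched, and the row of Areg was not used here. In the authors' deposited table the log2 difference of GW3965 from DMSO was 0.33 and 0.42 for Ereg in mouse 1 and mouse 2, 0.33 and 0.35 for Btc, and 0.20 and 0.19 for Errfi1. These have the sign found in the summed counts and are somewhat smaller. Hbegf differed by 0.09 and 0.11 there, above 0 in both mice, as in the summed counts with TMM scaling. For Erbb2 the authors' deposited table gave 0.18 and 0.04, the opposite sign of the summed counts in both mice. Tgfa (-0.12 and 0.24), Egfr (-0.09 and 0.32), Erbb3 (-0.04 and 0.18) and Lrig1 (-0.05 and 0.14) were opposite in the mice in the authors' deposited table as well. Over the 8463 symbols in both sources, the SD of the difference between the mice was 0.033 in the authors' deposited table and 0.273 in the summed counts. How the deposited values were scaled is not stated in the labels or the file.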

How the data were processed

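Poly-A RNA of 4 organoid libraries was sequenced as single-end 50 bp reads after stranded library preparation, with RNA integrity numbers above 8, per the labels' protocols. The labels name small-intestinal organoids as tissue and in the growth protocol, which was followed, although their extraction protocol mentions colon. CASAVA 1.7, FastQC, kallisto (both without a version) and mm10 are listed in the submitters' processing notes. Estimated counts and TPM of each transcript were deposited for every library, per the file headers. The series-wide table of whole counts deposited by the authors holds the same values rounded (largest gap 0.5). The authors also deposited log2 CPM for 8524 symbols. The labels and headers name no annotation release.

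Of 88198 transcripts, 86119 (97.64%) matched GENCODE M21 (GRCm38) and were summed over 30284 genes and rounded. Unmatched transcripts (2079; 0.69 to 0.85% of counts) were left out. The gene test was the quasi-likelihood test of edgeR 4.0.16 under R 4.3.3 (filterByExpr and TMM, no block, 2 residual and 7.78 prior degrees of freedom), with Benjamini-Hochberg adjusted p under 0.05 over all 13602 genes tested as the threshold. Transcripts were tested in the same way. The SE given with an edgeR log2 fold change is its absolute value divided by the square root of the F statistic of that test. Gene counts had been foreseen from the series-wide table; as it lists transcripts, sums over transcripts were used. The labels give same-numbered libraries 1 mouse, and their deviations from group means correlated at 0.0724 across genes. A fit with the mouse as block was run beside the main one. In the main fit, without the block, the SE includes the difference between the mice. No pair of libraries agreed within sampling noise. Alternatives were DESeq2 1.42.0, limma-voom (limma 3.58.1), other scalings, no filter, the mouse block, the rounded table and leaving out each library. The code was tested on simulated counts.

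The members and lists were chosen with earlier results of these data known. Named were all 10 members, up to 4 tested genes per pathway list with the smallest unadjusted p (1 listed pathway gene is not reported here and is in no count of its list), the protein-coding tested genes within 1 Mb of Areg, the 5 genes most like Areg, and Abca1, Abcg1 and Srebf1. Reads carry no molecular identifiers, so intervals and the floor of 3 counts cover counting error only.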

Additional observations from a re-analysis of the deposited data

How the results depend on the processing

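None of the 10 genes, of the 63 pathway genes counted or of the 19 tested transcripts was called under any alternative run for it. The number of genes called over all genes tested was 8, and moved to 20 with DESeq2 and with limma-voom, 13 with total counts, 14 without the filter, and 38 to 84 on leaving out 1 library (38 and 54 without the DMSO and the GW3965 library of mouse 1, 54 and 84 without those of mouse 2).

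With the mouse as a replicate block, 48 genes were called by edgeR and 44 by limma-voom, the latter added after seeing the data, with 1 residual degree of freedom and an infinite prior, so a blocked p does not use a gene's own spread; DESeq2 with the block called 12. The block changed the call of no member. It turned the log2 fold change of Erbb3 to -0.0040 (edgeR), -0.0034 (DESeq2) and -0.0130 (limma-voom), and of Egfr to -0.0023 (limma-voom). Without the block, limma-voom gave -0.0124 for Erbb3. Of 320 values of 32 named genes under 10 alternatives that keep all libraries, these 5 had the other sign.

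On leaving out 1 library, the log2 fold changes ran from 0.25 to 0.52 for Areg, 0.26 to 0.67 for Ereg, 0.34 to 0.53 for Btc and 0.08 to 0.47 for Errfi1. The sign was lost for 20 of 32 named genes. Their ranges were -0.12 to 0.27 for Hbegf, -0.45 to 0.32 for Tgfa, -0.37 to 0.38 for Egfr, -0.20 to 0.0305 for Erbb2, -0.39 to 0.35 for Erbb3 and -0.13 to 0.0638 for Lrig1. Among pathway genes they were -0.29 to 0.88 for Nrg2, -0.32 to 0.92 for Nrg4, -0.62 to 0.17 for Adam10, -0.0828 to 0.41 for Rhbdf1, -0.49 to 0.18 for Sos1, -0.51 to 0.0061 for Gab1, -0.51 to 0.0585 for Map2k1, -0.45 to 0.0087 for Map2k2, -0.16 to 0.0024 for Pik3r2, -0.28 to 0.0187 for Akt1, -0.24 to 0.0565 for Akt2, -0.32 to 0.14 for Pik3r1, -0.55 to 0.0129 for Spred1 and -0.18 to 0.98 for Spred3. The cause was not tested. A count of 0, as for Erbb4, allows up to 3 counts in each library.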
